A study of Mus musculus with 3 samples.

Results

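The nuclear-encoded subunits of the mitochondrial respiratory chain and ATP synthase were measured in F121-9 mouse embryonic stem (ES) cells. Genes were taken by symbol (Nduf, Sdh, Uqcr, Cyc, Cox and Atp5 names), and an annotated protein-coding transcript was required. Of 55536 genes in all, 91 gene IDs matched by symbol. The 4 without a coding transcript (Cox6c2, Ndufa11b, Ndufb4c and Ndufs6b) were left out, which gave 87 genes under 86 symbols. Atp5o has 2 gene IDs. By complex, the genes number 36 for complex I, 4 for complex II, 9 for complex III, 2 for cytochrome c, 18 for complex IV and 18 for complex V.

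F121-9 is a hybrid line with one parent of the Cast strain and one of the 129 strain, so neither parent is the strain of the mm10 reference. The part this plays in any level was not tested. There are 3 libraries of total RNA from 400 ng each, all at passage 14, and they form 1 group with no treatment, so no contrast between conditions exists. The labels call the libraries biological replicates 1 to 3, but nothing says that they came from separate cultures. P-values for spread therefore describe how far these 3 libraries scatter, and that scatter may be technical. P-values for differences taken within each library describe only how repeatable a difference was over these 3 libraries.

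The electron transport chain passes electrons from NADH (complex I) and succinate (complex II) through coenzyme Q, complex III and cytochrome c to oxygen at complex IV. The proton gradient built by complexes I, III and IV drives ATP synthase, which is complex V. Most subunits are encoded in the nucleus and imported, while the central membrane subunits of complexes I, III, IV and V come from the mitochondrial genome. Naive mouse ES cells are known to use both glycolysis and respiration.

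Levels are TPM (a share of the library's transcripts, scaled by length) from tables with RSEM columns, called RSEM-style, as the mean ± SD of n = 3 libraries. A second table per library has the columns of kallisto and is called kallisto-style. The libraries held 9765384 to 10610782 expected counts, and the subunits took 164767 to 170303 of them, or 1.63 to 1.72% of gene counts. All 6 ES cell markers were expressed, with summed levels of 26180.0 to 29026 TPM over the libraries. Most of this sum was Dppa5a (26198 ± 1726 TPM), and the other markers had means from 106 (Esrrb) to 505 TPM (Nanog). None of 6 fibroblast (feeder) markers reached 1 TPM in every library; they summed to 1.84 to 2.59 TPM, with Col3a1 and Postn at 0.

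Nearly the whole set was expressed, and at high levels. With a gene called expressed where every library had 1 TPM or more, 84 of 87 subunit genes were expressed (96.6%), beside 52.1% of all 22028 protein-coding genes. Together the subunits took 4.04 ± 0.041% of all TPM. The median subunit stood at 363 ± 6.01 TPM, against 19.6 ± 0.72 TPM for the median expressed protein-coding gene. In the ranking of expressed protein-coding genes, 81 subunits lay above the median and 70 lay in the top 10%. Above 1000 TPM stood 12 subunits, between 100 and 1000 TPM stood 64, and below 100 TPM stood 11. The 3 that were not called expressed were Cox8b, Cox8c and the second Atp5o gene ID. In bulk RNA, fewer cells with a transcript and less of it per cell cannot be told apart.

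**Figure D1:**
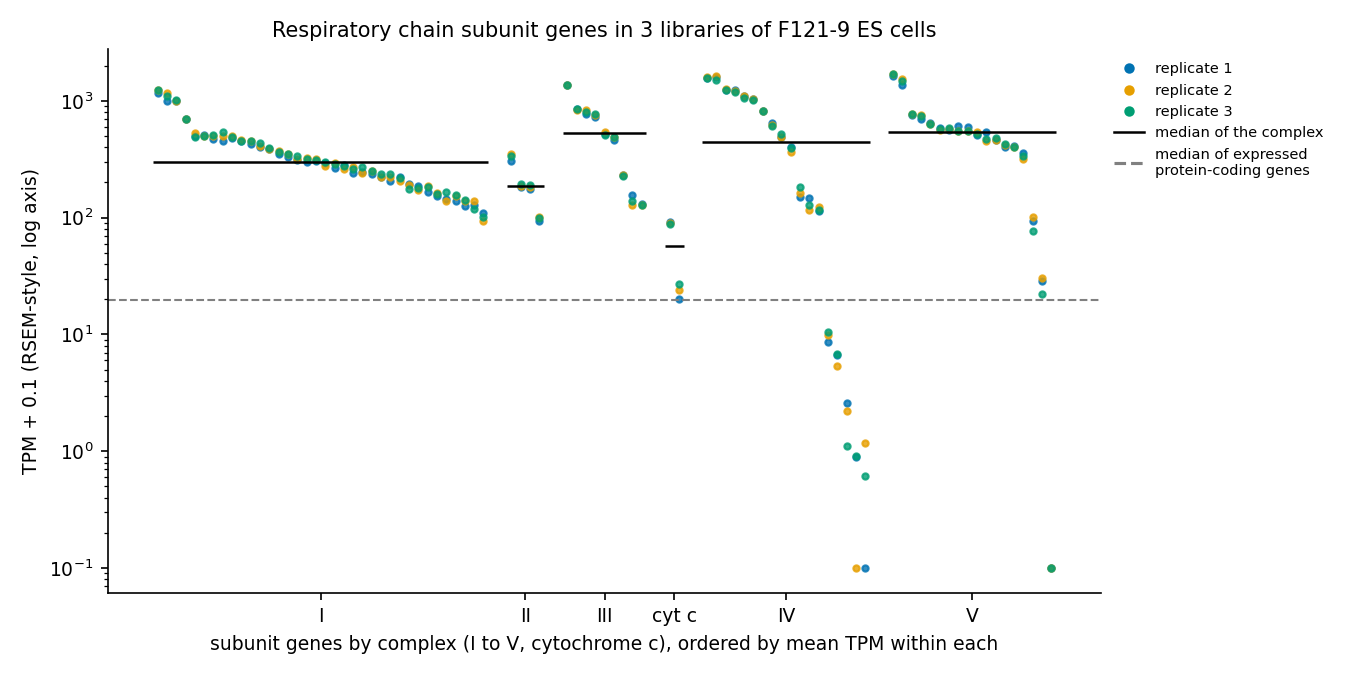
Levels of the 87 subunit genes in RSEM-style TPM + 0.1 on a log axis, by complex; each point is 1 library, black lines are the medians of each complex and the dashed line is the median of expressed protein-coding genes. The 3 libraries lie close together for most genes, and the complex IV column runs from 1581 TPM (Cox7c) to 0.53 TPM (Cox8c).

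Reads of several subunit genes can be placed elsewhere in the genome, and the sequences show how little separates the candidates. A near copy is defined here as a gene outside the set, not overlapping the subunit gene, with at least 90% identity over at least 50% of its coding bases. There were 89 such copies of 35 subunit genes, 85 of them typed as pseudogenes, and 20 were expressed. They summed to 2663 ± 52.3 TPM, which is 6.58 ± 0.118% of the subunits' own total. No subunit gene was a near copy of another. The stretches below show 3 subunit genes whose copies carried more TPM than the gene itself, 5′ to 3′ on the coding strand of GRCm38 (mm10), with bases that differ between a gene and a copy in capitals. Positions count from 1 at the A of the start codon.
Cycs: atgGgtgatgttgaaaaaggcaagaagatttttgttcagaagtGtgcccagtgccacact
Gm10053: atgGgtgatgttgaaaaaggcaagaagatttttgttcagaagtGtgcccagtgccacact
Gm10108: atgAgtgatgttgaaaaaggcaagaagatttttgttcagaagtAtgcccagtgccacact
Ndufb4: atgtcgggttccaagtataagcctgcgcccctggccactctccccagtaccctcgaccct
Ndufb4c: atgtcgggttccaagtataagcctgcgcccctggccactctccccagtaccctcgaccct
Ndufs5: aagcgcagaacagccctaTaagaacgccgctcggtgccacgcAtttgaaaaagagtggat
BC002163: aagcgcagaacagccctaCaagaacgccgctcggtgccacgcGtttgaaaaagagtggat
The Cycs and Ndufb4 lines cover coding positions 1 to 60, and the Ndufs5 lines cover positions 63 to 122. They lie at chr6:50565601-50565660 (Cycs, minus strand), chr19:24875753-24875812 (Gm10053, plus strand) and chr5:13121707-13121766 (Gm10108, minus strand). The Ndufb4 pair lies at chr16:37654300-37654359 and chr15:73809837-73809896, both on the minus strand. The Ndufs5 pair lies at chr4:123715958-123716017 on the minus strand and chr16:42955693-42955752 on the plus strand.

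Cycs encodes somatic cytochrome c, the soluble electron carrier between complexes III and IV, which also triggers apoptosis when released. Over its 318 coding bases Gm10053, typed protein-coding, is identical, and Gm10108, a processed pseudogene, carries G4A and G44A. Cycs itself was given 91.1, 90.5 and 88.9 TPM in replicates 1, 2 and 3. Its 9 copies together were given 409, 373 and 401 TPM, of which Gm10108 took 258 ± 14.9 and Gm10053 136 ± 4.32 TPM. The copies therefore held 81.4% of the combined TPM in the RSEM-style tables and 86.4% in the kallisto-style tables. TPM is scaled by length, so these shares and those below are not shares of reads. The main coding transcript, Cycs-202, has 3123 bases, of which 318 are coding.

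Ndufb4, an accessory subunit of the membrane arm of complex I, was given 222, 222 and 237 TPM. Ndufb4c, a processed pseudogene on chromosome 15 that is identical over all 390 coding bases, was given 939, 967 and 942 TPM, or 80.7% of the pair. Ndufs5, another accessory complex I subunit, had 154, 163 and 161 TPM, while BC002163 had 323, 335 and 369 TPM and differs by T81C and A105G over 319 bases. Cox7a2l, which helps join complexes III and IV into supercomplexes, had 117 ± 4.00 TPM, and its copy Gm6969 had 207 ± 10.3 TPM. In each of these 4 genes the copies lay above the gene in TPM in every library. The kallisto-style tables put the copies' share at 73.4% for Ndufb4, 54.8% for Ndufs5 and 47.2% for Cox7a2l. Reads inside identical bases carry nothing that tells the loci apart, so these levels are uncertain.

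For 6 more subunits the copies held over 10% of the combined TPM. The shares were 25.9% for Ndufa12, 15.5% for Atp5l, 11.0% for Atp5g2, 10.6% for Cox7c, 10.5% for Atp5h and 10.04% for Cox5b. For Ndufa12 the share was 41.5% in the kallisto-style tables. For Atp5g2, the copy Gm10175, identical over all coding bases, brought the copies' share to 48.9% in the kallisto-style tables. Gm10231, also identical over these bases, was listed at 0 in both kinds of table. The 14 copies of Atp5l fell to 0.966% in the kallisto-style tables. Among them Gm10221, which matches the Atp5l coding bases, stood at 92.7 ± 3.12 TPM in the RSEM-style tables and was listed at 0 in the kallisto-style ones.

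**Figure D2:**
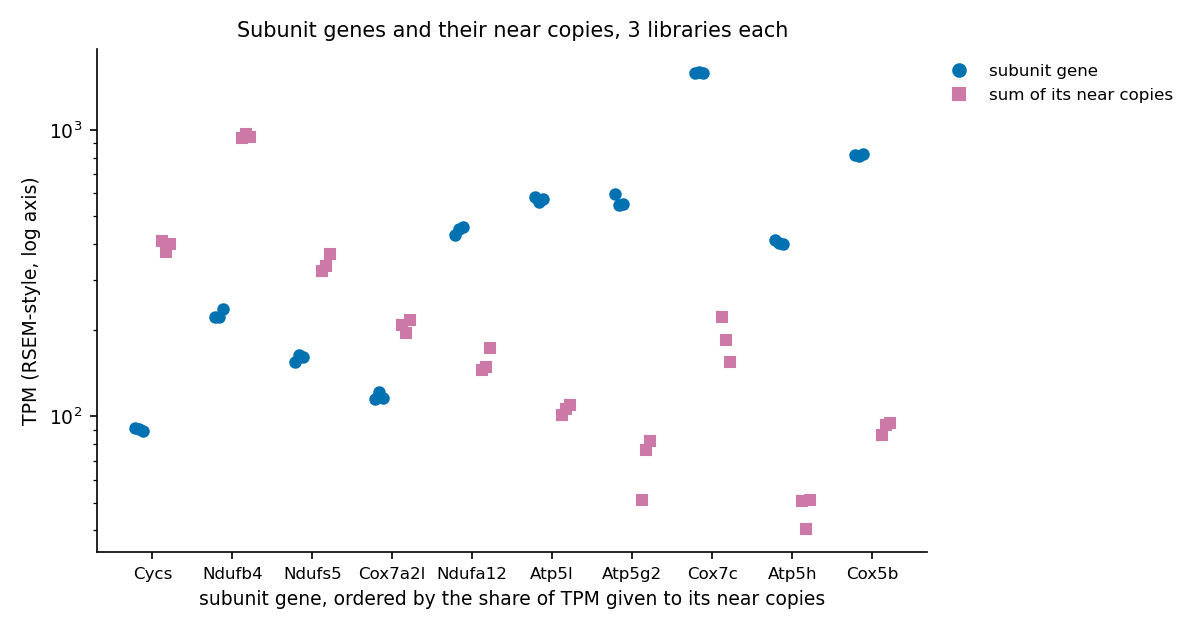
RSEM-style TPM (log axis) of the 10 subunit genes whose near copies held over 10% of the combined TPM, with each gene's 3 libraries as circles and the summed copies as squares. The squares lie above the circles for Cycs, Ndufb4, Ndufs5 and Cox7a2l, and below them for the other 6 genes.

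Complex I, the NADH dehydrogenase, had a median subunit level of 301 ± 3.89 TPM and 36 of 36 genes expressed. Its highest gene was Ndufa7 (chromosome 17, 33824572 to 33838317), an accessory subunit of the peripheral arm, at 1156, 1247 and 1239 TPM. Next came the accessory subunit Ndufc1 at 993, 1157 and 1103 TPM. Ndufa4, named for complex I but since assigned to complex IV, had 992, 1002 and 1023 TPM. The lowest was Ndufb3, a small accessory subunit of the membrane arm, at 109, 93.5 and 102 TPM. Every library of these top 3 genes lay above every library of Ndufb3, while the range of Ndufc1 overlapped those of Ndufa7 and Ndufa4. The 7 core subunits, which hold the flavin and iron-sulfur centres, had a median of 222 ± 16.6 TPM, against 322 ± 14.1 TPM for the 29 accessory ones. The core genes ran from Ndufs1 (129 ± 9.81 TPM), the largest iron-sulfur subunit, to Ndufv2 (362 ± 10.9 TPM), which carries another iron-sulfur cluster.

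Complex II, succinate dehydrogenase, is shared with the citric acid cycle. Its iron-sulfur subunit Sdhb (chromosome 4, 140961203 to 140979193) was highest at 305, 349 and 339 TPM. The flavoprotein Sdha had 182, 188 and 192 TPM and the membrane anchor Sdhd had 176, 182 and 188 TPM, so these genes overlapped. The other anchor, Sdhc, was lowest at 93.8, 101 and 98.5 TPM. The median of the 4 genes was 185 ± 5.62 TPM, beside 152 ± 2.10 TPM for 13 citric acid cycle genes.

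Complex III, the cytochrome bc1 complex, had a median of 525 ± 16.1 TPM over 9 genes. Of its 5 small subunits, 3 were the highest of the complex. Uqcr10 (chromosome 11, 4701973 to 4704342) had 1366, 1369.6 and 1352 TPM. Uqcrq followed at 853, 834 and 857 TPM, and Uqcrb at 771, 841 and 809 TPM, with overlapping ranges. The other small subunits were lower than the core protein Uqcrc1, with 525 ± 16.1 TPM for Uqcr11 and 141 ± 14.02 TPM for the hinge protein Uqcrh. Of the core proteins, Uqcrc1 had 749.9 ± 24.8 TPM and Uqcrc2 was the lowest of the complex at 130.0, 129 and 129 TPM. The catalytic subunits, which carry the electrons, were Cyc1 (cytochrome c1) at 480.3 ± 16.6 TPM and Uqcrfs1 (the Rieske protein) at 230.1 ± 3.20 TPM.

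Complex IV, cytochrome c oxidase, had a median of 444 ± 14.1 TPM over 18 genes, but its genes fell into very different levels. The 10 broadly expressed isoforms and single-isoform subunits had a median of 1057 ± 19.7 TPM, while the 7 tissue isoforms had a median of 6.16 ± 0.775 TPM, with 5 expressed. Cox7c (chromosome 13, 86044816 to 86046904) had 1578, 1589.6 and 1576 TPM. Cox8a had 1583, 1620.0 and 1506 TPM, which overlapped Cox7c, and Cox5a had 1234, 1268 and 1242 TPM. All 3 encode small nuclear subunits that surround the catalytic core.

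The isoform pairs of complex IV are known for switching between tissues, and in each of 7 pairs the broadly expressed form was higher in all 3 libraries. Flipping the signs of the 3 libraries' log2 ratios (exact permutation, two-sided) gave p = 0.25 for each of 8 pairs, Cycs over Cyct included, the smallest value that 3 libraries allow. Cox4i1 had 1107, 1088 and 1053 TPM, while Cox4i2, the lung form linked to low oxygen, had 2.50, 2.10 and 1.01 TPM. Their ratio was 8.60 ± 0.385 on the log2(TPM + 1) scale, on which ratios over low genes are understated. Cox6a1 had 1043, 1032 and 1018 TPM, against 8.51, 9.80 and 10.3 TPM for the heart and muscle form Cox6a2, a log2 ratio of 6.62 ± 0.146. Cox7b had 486, 493 and 519 TPM, against 6.56, 5.27 and 6.66 TPM for the testis form Cox7b2, a log2 ratio of 6.13 ± 0.150.

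The testis form Cox6b2 and the muscle form Cox7a1 lay far closer to their partners. Cox6b1 had 646, 617 and 611 TPM and Cox6b2 had 148, 116 and 128 TPM, a log2 ratio of 2.26 ± 0.144. Cox6b2 thus held 17.3% of its pair. Cox7a2 had 404, 365 and 395 TPM and Cox7a1 had 151, 163 and 182 TPM, a log2 ratio of 1.23 ± 0.160, so that Cox7a1 held 29.8% of its pair. In the kallisto-style tables the Cox7a ratio was 1.81. For the muscle and testis lists the defining markers were low: 3 of 7 heart and skeletal muscle markers were expressed, the list summed to 9.80 to 11.0 TPM per library, and Acta1 was at 0. None of 6 testis germ cell markers was expressed, the list summed to 1.37 to 1.81 TPM, and Prm2, Tnp2 and Acr were at 0. Of 3 brown fat markers, Cidea was expressed at 14.7 TPM and Ucp1 had 0.127 TPM on average. The 3 lung and smooth muscle markers summed to 0.04 to 0.06 TPM, with Sftpc and Scgb1a1 at 0.

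Cox8b, the heart and muscle form, had 0.80, 0 and 0.82 TPM from 2 counts in all 3 libraries. Cox8c, the testis form, had 0, 1.07 and 0.52 TPM from 3 counts in all. By counting error alone, a library listed at 0 may hold up to 3 counts, which is 0.288, 0.313 and 0.301 CPM in replicates 1, 2 and 3 (CPM are counts relative to the library total). Against Cox8a the log2(TPM + 1) ratios of 10.05 ± 0.536 (Cox8b) and 10.07 ± 0.518 (Cox8c) depend on the pseudocount and give no bound. The testis cytochrome c gene Cyct had 23.7 ± 3.54 TPM, with 24.0 and 27.1 TPM in replicates 2 and 3 and less in replicate 1. All 3 lay below Cycs, with a log2 ratio of 1.89 ± 0.227 for Cycs over Cyct. In the kallisto-style tables this ratio was 1.32. The median of both cytochrome c genes was 56.9 ± 1.247 TPM, and 254 TPM once the near copies were added. Only Cycs had such copies, and TPM is scaled by length, so the 254 TPM is not a measure of reads.

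**Figure D3:**
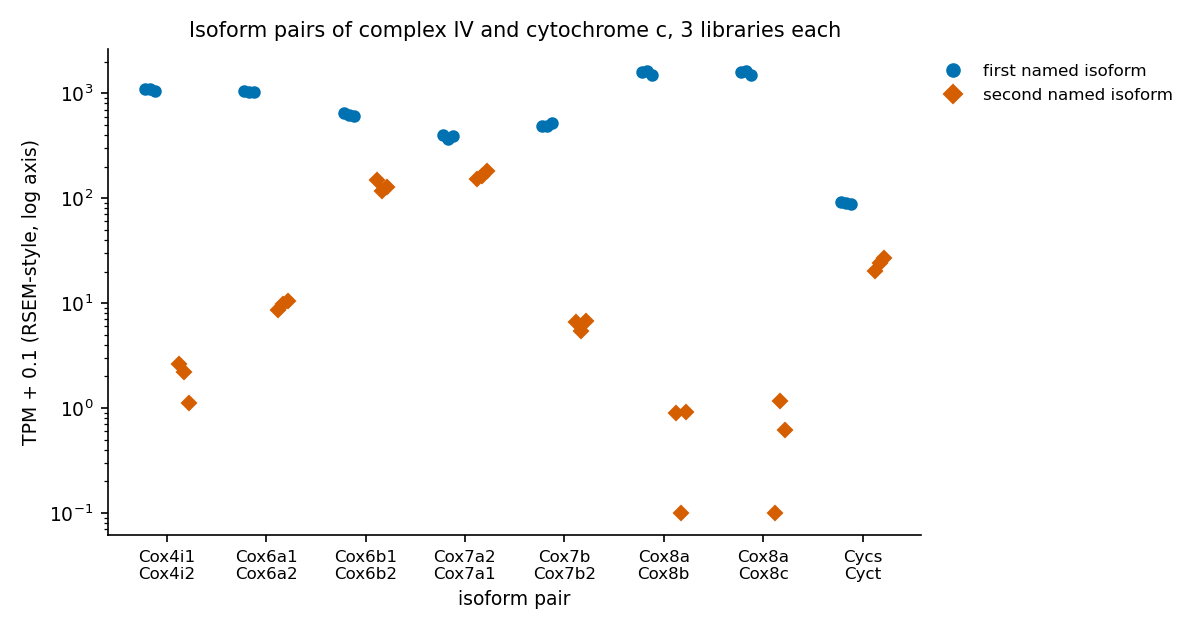
RSEM-style TPM + 0.1 (log axis) of the 8 isoform pairs, with the first named isoform as circles and the second as diamonds, 1 point per library. The gap is widest for Cox8a and Cox4i1 and their partners and narrowest for Cox7a2 and Cox7a1, whose ratio was 1.23 on the log2 scale.

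Complex V, the ATP synthase, had a median of 544 ± 8.69 TPM over 18 genes, and its libraries overlapped those of complex III. The order of complexes III, IV and V turned with the settings. Over expressed genes only, complex IV had a median of 562 TPM and complex V 553 TPM. In the kallisto-style tables the order was another again, with 414 ± 29.4 TPM for complex V below complex III (529 ± 28.3 TPM) and complex IV (532 ± 36.8 TPM). Atp5b (chromosome 10, 128083273 to 128090391), the catalytic beta subunit of the F1 head, had 1628, 1696 and 1689 TPM and was the highest of all 87 genes. Atp5g1, one of the c ring genes, had 1359, 1529.6 and 1474 TPM. Atp5j, coupling factor 6 of the peripheral stalk, came next at 754, 775 and 772 TPM. The other F1 subunits were lower than Atp5b. Atp5a1 (alpha) had 570.1 ± 32.8 TPM, Atp5c1 (gamma) 526 ± 16.8 TPM, Atp5d (delta) 337 ± 18.3 TPM and Atp5e (epsilon) 91.1 ± 12.7 TPM. The order of the last pair turned in the kallisto-style tables, with 255 TPM for Atp5d and 363 TPM for Atp5e. The F1 head holds several copies of alpha and beta for each of the small subunits. Atp5s (coupling factor B) had 28.6, 30.5 and 22.2 TPM. The second Atp5o gene ID, which overlaps Donson and the main Atp5o gene on the same strand, was listed at 0 counts in all 3 libraries.

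The c ring, the rotor driven by protons, is built from a single mature protein encoded by Atp5g1, Atp5g2 and Atp5g3. Their last 60 coding bases are shown, with bases that are not shared by all 3 genes in capitals (GRCm38, minus strand: chr11:96073104-96073163, chr15:102663014-102663073 and chr2:73908593-73908652).
Atp5g1: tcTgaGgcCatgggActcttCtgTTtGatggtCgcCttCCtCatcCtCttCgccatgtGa
Atp5g2: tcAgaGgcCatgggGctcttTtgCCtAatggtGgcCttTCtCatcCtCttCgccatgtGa
Atp5g3: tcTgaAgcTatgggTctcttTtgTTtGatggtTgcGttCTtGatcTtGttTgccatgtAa
Over the last 228 coding bases, Atp5g1 differed from Atp5g2 at 34 bases and from Atp5g3 at 46, and Atp5g2 differed from Atp5g3 at 49. Reads from this part thus carry differences between the 3 genes. Atp5g1 made up 56.1% of their combined 2590.1 ± 68.3 TPM. Atp5g2 had 597, 547 and 551 TPM and Atp5g3 had 559.5, 572 and 581 TPM, which overlapped, at 21.9 and 22.0% of the sum. The kallisto-style tables gave 54.8, 16.9 and 28.3% for Atp5g1, Atp5g2 and Atp5g3.

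Subunits on the X chromosome were Ndufa1 (449, 498 and 536 TPM), which is needed for complex I assembly, Ndufb11 (167, 187 and 182 TPM), a membrane arm accessory subunit, and Cox7b (given above). All 3 were expressed in every library.

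Assembly factors, which build the complexes but do not stay in them, had medians below those of the subunits. The assembly factor medians were 32.2 ± 1.32 TPM (17 genes, complex I), 15.7 ± 0.264 TPM (4 genes, complex II), 30.7 ± 1.37 TPM (6 genes, complex III), 39.7 ± 1.67 TPM (25 genes, complex IV) and 53.5 ± 2.32 TPM (5 genes, complex V). All genes of these 5 lists were expressed. Highest and lowest were Ndufaf8 (101 ± 6.55 TPM) and Tmem186 (6.02 ± 0.570 TPM) for complex I, and Sdhaf4 (44.4 ± 3.88 TPM) and Sdhaf3 (3.00 ± 0.260 TPM) for complex II. For complex III they were Uqcc2 (419 ± 20.5 TPM) and Lyrm7 (8.30 ± 2.66 TPM). For complex IV they were the copper chaperone Cox17 (532 ± 19.0 TPM) and Taco1 (7.55 ± 2.12 TPM), which activates translation of mt-Co1. For complex V they were Fmc1 (92.9 ± 8.17 TPM) and Atpaf2 (44.8 ± 2.18 TPM). Genes for coenzyme Q synthesis had a median of 21.1 ± 1.47 TPM over 13 genes.

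Mitochondrial ribosomal proteins had a median of 103.5 ± 2.07 TPM over 78 genes, and glycolysis genes 216 ± 8.07 TPM over 15. Subunits that the symbols leave out were high: Atpif1, the ATP synthase inhibitor, had 1023 ± 18.8 TPM, Usmg5 of complex V had 1013 ± 11.0 TPM and Ndufab1, the acyl carrier protein, had 924 ± 28.9 TPM. Ndufa4l2, a paralog of Ndufa4 induced by low oxygen, had 12.7 ± 1.08 TPM. Of 13 mitochondrially encoded subunits 12 were expressed, with a median of 561 ± 29.3 TPM. They summed to 25752 ± 619 TPM, of which mt-Atp8 alone had 8091 ± 325 TPM, against 40446 ± 411 TPM for the 87 nuclear genes. In the kallisto-style tables the median of the 13 was 915 ± 69.8 TPM. The gene not called expressed, mt-Nd4l, was listed at 0 in the RSEM-style tables and had 535 TPM on average in the kallisto-style ones.

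Regulators of respiratory genes had a median of 10.3 ± 1.03 TPM over 20 genes, of which 16 were expressed. Highest was the orphan nuclear receptor Esrrb (106 ± 13.6 TPM), which is also a pluripotency factor, and Esrrg was at 0. Nrf1 and Gabpa, factors known to bind promoters of respiratory genes, had 96.5 ± 2.06 and 67.1 ± 5.02 TPM. Ppargc1a, a coactivator known for raising respiration in muscle and brown fat, had 0.02, 0 and 0 TPM, while its relative Pprc1 had 62.2 ± 4.40 TPM; these 4 were named after their values were seen. Gabpa overlaps exons of Atp5j on the opposite strand over 397 bases. In all, 29 subunit genes overlapped exons of another gene, 25 of them on the opposite strand. The share of all genes with such overlaps was not taken. Some overlaps were short, as the 4 bases shared by Ndufa3 and Tfpt. Since the strand setting of the counting is not given, reads inside the overlaps are uncertain.

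Promoters of 67 subunit genes could be matched in the RefSeq table (GRCm38.p6), each covering 250 bases before to 50 after the start. The NRF1 motif (GCGCA, any base N, then GCGC), searched on both strands, was in 16 of 67 (23.9%), beside 11.8% of 8497 other expressed coding genes and 4.60% of all 32851 promoters in the table. The ETS core CCGGAAG, bound by GABPA among others, was in 15 (22.4%), beside 20.7% of the other expressed genes and 8.86% of all promoters. The YY1 core AAGATGG was in 9 (13.4%), beside 7.93 and 6.34% of those sets. The TATA letters TATAAA were in 7 (10.4%), beside 6.27 and 13.6%. Either the NRF1 or the ETS motif was in 27 (40.3%), beside 30.1 and 12.6%. The median GC content was 57.0% in the subunit promoters and 61.7% in those of the other expressed coding genes, and no test was made of any of these shares. The 120 bases before the start are shown for 3 genes that hold the NRF1 motif together with the ETS motif or more than once, with matches in capitals (Cox6a1 chr5:115348959-115349078, Sdha chr13:74350241-74350360 and Sdhd chr9:50603850-50603969, all on the minus strand).
Cox6a1: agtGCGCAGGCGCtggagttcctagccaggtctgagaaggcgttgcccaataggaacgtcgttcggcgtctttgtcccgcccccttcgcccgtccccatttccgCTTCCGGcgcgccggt
Sdha: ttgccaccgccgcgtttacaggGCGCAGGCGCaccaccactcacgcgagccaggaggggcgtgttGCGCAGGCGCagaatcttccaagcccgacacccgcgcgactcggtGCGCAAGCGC
Sdhd: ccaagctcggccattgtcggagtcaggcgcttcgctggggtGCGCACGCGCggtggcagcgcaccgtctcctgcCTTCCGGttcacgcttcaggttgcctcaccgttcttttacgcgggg
Sdha holds 3 NRF1 matches in this window, Cox6a1 holds 1 NRF1 match and 1 ETS match, and Sdhd also holds 1 of each; both ETS matches are on the other strand. A further NRF1 match of Cox6a1 lies upstream of the window. A match is a description of letters, not of binding.

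Many subunit genes were read largely from 1 main transcript. Of 84 expressed genes, 73 have several annotated transcripts, and the main one was the same in both tables for 70 of them. The main transcript held a median of 96.0% of the gene's TPM in the RSEM-style tables, and 47 genes were over 90%. A gene with only 1 annotated transcript has all of its TPM there by definition. Ndufv3, an accessory complex I subunit with a long and a short form, was read as the short Ndufv3-202 (493 bases) at 474, 484 and 482 TPM. The long Ndufv3-201 (1582 bases) had 7.13, 9.12 and 9.51 TPM.

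For 5 expressed genes the most abundant transcript was not typed protein-coding in the RSEM-style tables. Ndufa5 was read as the processed transcript Ndufa5-204 at 454, 428 and 430.4 TPM, and Ndufa3 as Ndufa3-204, typed for nonsense-mediated decay, at 381, 395 and 394 TPM. Atp5j was read as Atp5j-208, a retained intron form, at 476, 486 and 518 TPM. The others were Cox5b (Cox5b-205, 433 ± 11.3 TPM) and Ndufs4 (Ndufs4-202, 82.7 ± 10.9 TPM). Transcripts not typed coding held 88.3% of the TPM of Ndufa5, 77.8% of Ndufa3, 68.2% of Ndufs4, 65.7% of Atp5j and 53.3% of Cox5b. In the kallisto-style tables these shares were 49.9% for Ndufa5, 54.9% for Ndufa3, 81.8% for Ndufs4, 33.9% for Atp5j and 34.7% for Cox5b. Such transcripts held over 20% in 11 genes in the RSEM-style tables. Neither this count nor that of the 5 genes was taken over all expressed genes.

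The 2 quantifications of the same libraries were compared gene by gene. With limma on the per-library difference of log2(TPM + 1), RSEM-style minus kallisto-style, 2 of 84 subunit genes differed by at least 1 with an adjusted p under 0.05 (2.38%), beside 13.1% of the 14790 genes tested. With no minimum difference 67 of 84 did (79.8%), beside 77.6% of all genes. The median difference was 0.30 for the subunits and 0.25 for all genes, and 78 subunits were higher in the RSEM-style tables. That count was not taken over all genes, whose median lay in the same direction. Atp5e had 94.3, 102 and 77.0 TPM in the RSEM-style tables, against 370.4, 366 and 353 TPM in the kallisto-style tables. Its values did not overlap, and the difference was -1.99 ± 0.0808 (SE, limma adjusted p = 1.04e-04). Atp5g2 had 597, 547 and 551 TPM in the RSEM-style tables, against 291, 262 and 251 TPM in the kallisto-style tables, a difference of 1.07 ± 0.0490 (SE, limma adjusted p = 1.48e-04). Cox7b, at 499 ± 17.2 TPM in the RSEM-style tables and 897 ± 51.8 TPM in the kallisto-style tables, stayed short of the minimum with a difference of -0.84 ± 0.0629 (SE).

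**Figure D4:**
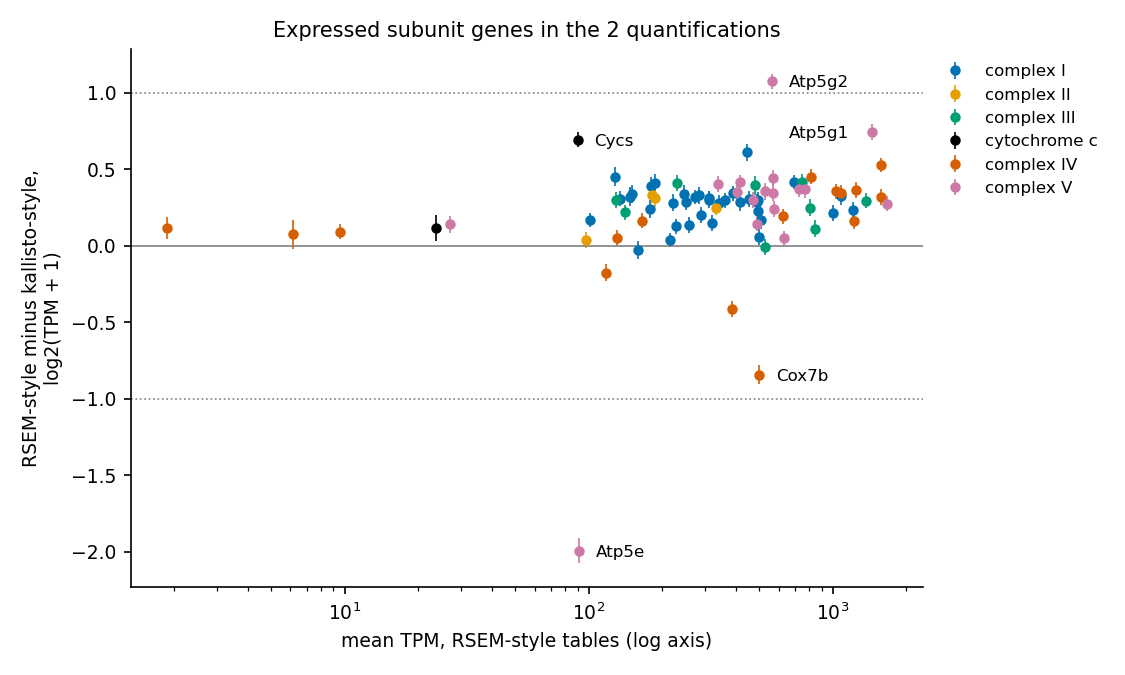
Difference of log2(TPM + 1), RSEM-style minus kallisto-style, for the 84 expressed subunit genes against their mean RSEM-style TPM (log axis), with bars for the SE over 3 libraries and dotted lines at the minimum difference of 1. Most points lie just above 0, and Atp5e (-1.99) and Atp5g2 (1.07) lie beyond the dotted lines.

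The same comparison was made for single transcripts. Of 259 subunit transcripts tested 57 were called (22.0%), beside 18.9% of 28903 transcripts in all, with 23 higher in the RSEM-style and 34 higher in the kallisto-style tables. With no minimum difference the figures were 158 of 259 (61.0%), beside 61.6% of all transcripts. Among those typed protein-coding, 23 of 153 were called (15.0%), beside 10.3% of all coding transcripts. Cox7b-202, a processed transcript of 180 bases, had 0, 0 and 8.75 TPM in the RSEM-style tables and 444, 384 and 396 TPM in the kallisto-style tables. The coding transcript Cox7b-201 had 369 TPM in the RSEM-style and 257 TPM in the kallisto-style tables on average. Ndufa5-202 (15.7 and 186 TPM) and Cox5b-201 (10.8 and 126 TPM), both coding, were also higher in the kallisto-style tables. So were Cox6b1-203 (0 and 14.04 TPM) and Cox8a-202 (0.267 and 14.7 TPM), which are not typed coding.

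In the other direction stood Atp5b-203, a processed transcript at 25.5 TPM in the RSEM-style tables and listed at 0 in the kallisto-style ones, and Ndufb8-202, a retained intron form at 52.3 and 2.40 TPM. The differences of Ndufb8-202 and Atp5b-203 were 4.00 ± 0.160 and 4.72 ± 0.0948 (SE, limma adjusted p = 0.00113 and 4.01e-04). Cox6b1-204 (14.9 and 1.10 TPM), Cox6b1-202 (10.1 and 1.42 TPM) and Ndufs1-210 (13.9 and 1.88 TPM) completed the set of 5 with the largest difference each way.

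The spread between libraries was tested gene by gene. No subunit gene was called variable by edgeR's quasi-likelihood dispersion against its trend (0 of 83 tested, smallest adjusted p = 0.987), beside 0.0373% of 13391 genes. With so few genes called in all, the 0 says nothing particular to the subunits. At an unadjusted p under 0.05 stood 2 subunits (2.41%), beside 4.56% of all genes. Limma-voom likewise called 0, with 2 at that level, beside 4.52% of all genes. The median coefficient of variation was 3.50% for the 43 subunits between 172 and 572 TPM, against 3.76% for 611 other coding genes in that range.

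Against counting noise alone, replicate 1 stood apart. By a chi-square test on 2 degrees of freedom, 28 of 83 subunits (33.7%) had a spread beyond counting noise with an adjusted p under 0.05, beside 12.4% of all genes. With scaling by the ERCC spike-ins the figures were 33 of 83 (39.8%), beside 34.7% of all genes. Among genes of at least 50 CPM the figures were 28 of 73 (38.4%), beside 26.8%. Of the 28, 27 were lower in replicate 1 than in the mean of the others. This count was not taken over the other genes called, so it cannot be read as particular to the subunits. Genes of similar length also had a median log2 ratio below 0 (-0.07). Without replicate 1, 0 subunits and 0.2% of all genes passed this test, with replicates 2 and 3 only.

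Smallest were the p-values of 5 abundant genes, of which Atp5g1 and Uqcrc1 led. Atp5g1 had 416, 487 and 469 CPM (chi-square adjusted p = 4.63e-12), and the core protein Uqcrc1 had 758, 831 and 849.6 CPM (adjusted p = 1.84e-11). Sdhb had 209, 251 and 242 CPM, and Atp5b had 1450.0, 1560.4 and 1524 CPM (adjusted p = 3.44e-08 for both). Atp5o, the oligomycin sensitivity protein of the peripheral stalk, had 321, 365 and 357 CPM (adjusted p = 3.47e-06). In all 5 genes replicate 1 was lowest.

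Replicate 1 was the lowest library for 65 of 83 subunits (78.3%), beside 38.6% of all genes tested. The median log2 ratio of replicate 1 to the mean of replicates 2 and 3 was -0.11 for the subunits, -0.003 for all genes and -0.07 for 3000 genes of 455 to 1497 bases, a range of length fitted to the subunits. With ERCC spike-in scaling the median of all genes moved to 0.18 and that of the subunits to 0.08, so that the sign turned while the subunits again lay below all genes. The subunits are short, with a median length of 669 bases, against 2427 bases for all genes tested. Across 7584 genes of at least 20 CPM the ratio rose with length (Spearman's rho of 0.454, a description over genes that share the same 3 libraries). Among the 83 subunits rho was -0.115. The part that length plays in the lower values of replicate 1 was not tested.

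**Figure D5:**
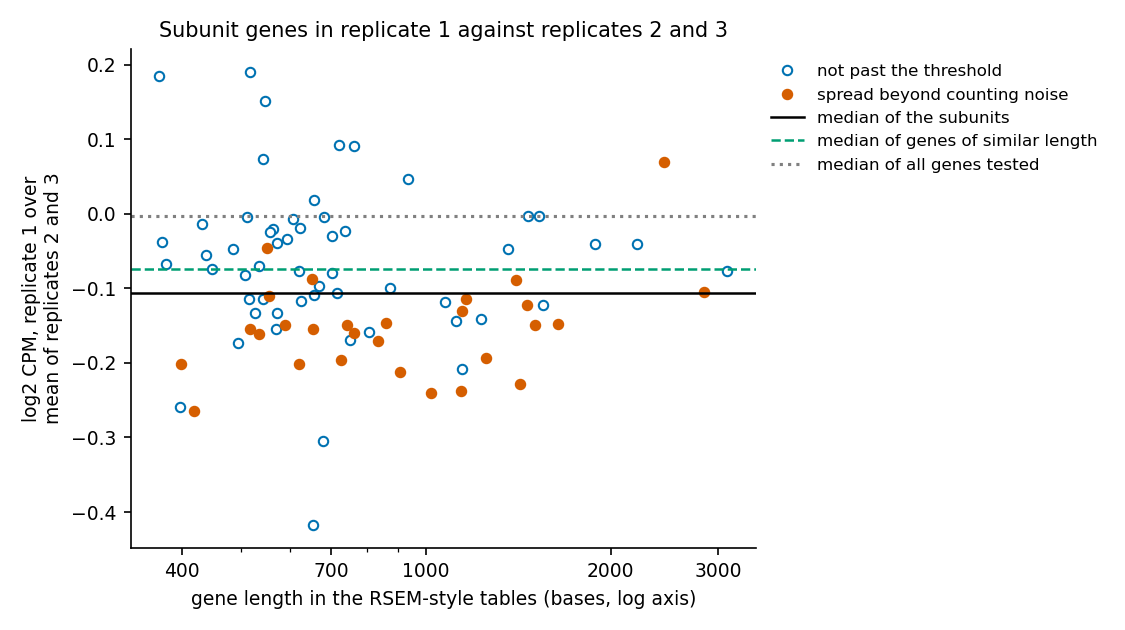
Log2 ratio of CPM in replicate 1 to the mean of replicates 2 and 3 (TMM scaling) for the 83 subunit genes tested, against gene length on a log axis; filled points passed the chi-square test. Of the 28 filled points, 27 lie below 0, a count that was not taken over other genes. The black line at the subunits' median (-0.11) lies below the lines for genes of similar length (-0.07) and for all genes (-0.003).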

How the data were processed

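Total RNA from 3 libraries was quantified on mm10 with GENCODE M21, per the file headers and the submitters' processing notes. The deposited RSEM-style gene and transcript tables give expected counts (estimated counts, not normalized) and TPM whose sum is equal between libraries, and were made by the authors from transcriptome alignments. The deposited kallisto-style transcript tables were made from read files, and their estimated counts and TPM were summed per gene. Gene and effective lengths come from the deposited tables. The quantifiers, the aligner and the strand option were not given in the sources used here. Libraries held 10610782, 9765384 and 10175403 expected counts.

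All 55536 gene IDs matched M21. The 96 ERCC rows and 26249 other rows (at most 0.00016% of counts) were left out of every test and of the library sizes. Expected counts were rounded to whole numbers first. Tests ran on all genes with Benjamini-Hochberg adjustment at 0.05: edgeR 4.0.16 (filterByExpr, TMM, intercept-only quasi-likelihood fit, dispersion against the trended prior), a chi-square test against Poisson, and limma 3.58.1 on paired differences of log2(TPM + 1) with a minimum of 1 (R 4.3.3, Python 3.11.15). Near copies came from blastn 2.17.0 of the coding bases against M21 transcripts. Scripts were tested on simulated data. CPM values are counts scaled to TMM library sizes. Intervals and floors cover counting error only.

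Members and gene lists were chosen with earlier results of these data known. Values per library were to be given for the top 3 and lowest of each complex, the isoform groups, called genes and transcripts, and X-linked members. Near copies, overlaps and the main transcripts of Ndufv3, Ndufa5, Ndufa3, Atp5j, Cox5b and Ndufs4 were named after values were seen. Alternatives were other thresholds, pseudocounts, scalings, filters and tables, DESeq2 1.42.0 size factors, and leaving out each replicate.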

Additional observations from a re-analysis of the deposited data

How the results depend on the processing

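Of 118 alternatives, 95 gave the same call, a value within the spread between libraries or a count within 1.5 times. For values averaged over the libraries, leaving out a replicate cannot move the mean beyond their SD. Those entries among the 95 were therefore fixed in advance and say nothing about robustness. In the kallisto-style tables the subunits' share of TPM was 3.36%, and over protein-coding genes alone it was 4.70%. The kallisto-style medians were 249 TPM for complex I, 148 for complex II, 38.5 for cytochrome c, 532 for complex IV and 414 for complex V. Leaving out genes not expressed moved complex IV to 562 TPM. Adding near copies, chosen after seeing the data, moved complex I to 318 and cytochrome c to 254 TPM, which are length-scaled sums and not reads. A pseudocount of 0.1 moved the log2 ratios to 9.19 for Cox4i1 over Cox4i2, 6.32 for Cox7b over Cox7b2, 11.81 for Cox8a over Cox8b and 11.88 for Cox8a over Cox8c. In the kallisto-style tables they were 6.35 for Cox6a1 over Cox6a2, 1.81 for Cox7a2 over Cox7a1, 7.05 for Cox7b over Cox7b2 and 1.32 for Cycs over Cyct. With no minimum difference 67 subunit genes (79.8%, beside 77.6% of all genes) and 158 transcripts (61.0%, beside 61.6%) differed between the quantifications. At a TPM of at least 5, 36 of 167 did (21.6%, beside 18.5%), a set with fewer transcripts tested. Spread beyond counting noise was called for 22 of 86 subunits with no filter (25.6%, beside 6.56%) and for 36 of 83 in the kallisto-style tables (43.4%, beside 17.6%); ERCC scaling, chosen after seeing the data, gave 33. With ERCC scaling the median ratio of replicate 1 reversed to 0.078, as all genes moved with it. Leaving out each replicate in turn gave 0 to 27 subunits with spread beyond counting noise, the 0 being without replicate 1. Over all genes, 27 of 13489 were called without replicate 1, 1464 of 13583 without replicate 2 and 1471 of 13549 without replicate 3. The same step gave shares of TPM of 4.03 to 4.07%. It gave 50 to 57 transcripts differing between the quantifications, for which the share over all transcripts was not taken. Causes of the other changes were not tested. The edgeR call of 0 variable subunits held under every alternative run, with 0 to 3 at an unadjusted p under 0.05. At 3 counts or fewer, as for Cox8b and Cox8c, depth limits any ratio. No paired analysis was possible because there is 1 group, so replicate numbers pair nothing between groups; the 2 quantifications were compared within each library.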
